A study of Mus musculus with 6 samples.

Results

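The muscle actin genes and their contractile partners were followed in crypt epithelium, the cell layer that lines the crypts of the mouse intestine. The set holds 10 of the 24930 genes in the deposited table: the actin genes Acta1, Acta2, Actc1 and Actg2, the actin-binding genes Tagln and Cnn1, the smooth muscle myosin heavy chain gene Myh11, the intermediate filament gene Des, and the tropomyosin genes Tpm1 and Tpm2. They were taken by symbol, and the set was chosen by the measured values of Acta1, which were higher in every β-cateninGOF/+ library. The Acta1 values are therefore given as a description without a test, and the other 9 genes come from the same contrast.

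Messenger RNA was sequenced from 3 β-cateninGOF/+ and 3 Control libraries. The β-cateninGOF/+ crypts (mutant libraries below) were sampled 4 days after induction of a gain-of-function mutation in 1 β-catenin allele, and the table's columns name this group exonhet. The libraries of the other group carry the same day 4, and the labels otherwise say only that they are Control. No source used here gives the driver of the induction, the strain, the age, the gut segment or whether libraries come from separate animals. The p-values therefore rest on the spread among 6 libraries, part of which may be technical.

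Vertebrates carry a small family of actin genes. Acta1 encodes the actin of skeletal muscle and Actc1 that of the heart, Acta2 that of vascular smooth muscle and of myofibroblasts, and Actg2 that of the smooth muscle of gut and bladder. Actb and Actg1 encode the cytoplasmic actins that every cell uses. Contractile genes are classical targets of serum response factor (SRF), which binds a short DNA motif called the CArG box together with the cofactors myocardin or MRTF; MRTF proteins are held in the cytoplasm by unpolymerized actin. In the gut wall most of this programme belongs to the muscle layers and to contractile cells of the stroma beneath the epithelium. RefSeq places Acta1 on chromosome 8, Acta2 on 19, Actc1 on 2, Actg2 on 6, Des on 1, Myh11 on 16, Tpm2 on 4, and Tagln, Cnn1 and Tpm1 on 9.

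The actins are near copies of each other, so the sequences show what a read must carry to be assigned to Acta1. The lines give 60 coding bases of each actin from the GENCODE vM21 transcripts (GRCm38), 5′ to 3′, aligned without gaps by distance from the last codon; they begin at coding base 37 of Acta1, Acta2 and Actc1, 34 of Actg2 and 31 of Actb and Actg1. Capitals mark bases that differ from Acta1.
Acta1: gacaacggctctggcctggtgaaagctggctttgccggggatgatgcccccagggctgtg
Acta2: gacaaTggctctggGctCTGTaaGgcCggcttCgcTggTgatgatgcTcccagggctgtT
Actc1: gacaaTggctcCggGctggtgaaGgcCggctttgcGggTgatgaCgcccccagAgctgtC
Actg2: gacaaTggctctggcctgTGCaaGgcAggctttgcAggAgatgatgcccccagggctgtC
Actb: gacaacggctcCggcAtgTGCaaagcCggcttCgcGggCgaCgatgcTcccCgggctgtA
Actg1: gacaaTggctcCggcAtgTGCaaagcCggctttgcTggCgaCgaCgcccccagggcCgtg
In this stretch the others differ from Acta1 at 9 to 13 bases. Over 1095 aligned coding bases, Actc1 was identical to Acta1 at 86.3%, Acta2 and Actb at 85.8% each, Actg2 at 85.0% and Actg1 at 84.4%. Of the 1534 different 31-base words in the annotated Acta1 transcripts, 63 (4.11%) also occur in another gene, 57 of them in Actb. That share was 1.39% for Acta2, 1.21% for Actg2, 0.756% for Actc1, 5.28% for Des and 0% for Cnn1. Tagln stands apart, with 62.2% of its words also in another annotated gene, nearly all in Gm48529, which has no row in the deposited table.

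The values are a normalized abundance per gene, called units below, on a scale that corrects for transcript length, so levels of different genes can be set side by side. In 63.1% of the 15149 genes with a value in every library, the 6 values were whole multiples of a common step once each library's relative depth was taken into account. Of 1768 such genes with 1 annotated transcript, 66.6% had a step within 5% of that given by transcript length less 200 bases, and a step is counted below as 1 read. Reads per unit relative to Control replicate 1 were 0.996, 1.35 and 0.886 in β-cateninGOF/+ replicates 1, 2 and 3, and 1.03 and 1.42 in Control replicates 2 and 3. Genes with whole steps held 9930020 to 13077313 reads in β-cateninGOF/+ and 9801303 to 14315303 reads in Control libraries. Ctnnb1, which encodes β-catenin, had 262, 236 and 285 units in β-cateninGOF/+ libraries and 246, 248 and 273 units in Control libraries; the value sums both alleles. Of the epithelial markers, Epcam had 675 to 1054 units in β-cateninGOF/+ and 594 to 783 units in Control libraries, and Cdh1 had 209 to 324 units in β-cateninGOF/+ and 227 to 250.04 units in Control libraries. Others of the 14 epithelial genes differed more in their means. Krt20 had 851 ± 547 units in β-cateninGOF/+ and 340 ± 171 units in Control libraries (SD, n = 3 each). Olfm4 had 439 ± 348 units in β-cateninGOF/+ and 822 ± 362 units in Control libraries. β-cateninGOF/+ replicate 3 had the highest Krt20 value (1449 units) and the lowest Olfm4 value (54.6 units) of all libraries. In replicates 1 and 2, Olfm4 stood at 533 and 731 units, inside the Control range of 472 to 1195 units. β-cateninGOF/+ replicate 3 held the highest value of 9 of the 10 contractile genes, so values without it are given where they matter.

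Acta1 was the most abundant muscle actin in all 6 libraries. It stood at 11.8, 11.6 and 20.5 units in β-cateninGOF/+ replicates 1, 2 and 3, against 2.03, 1.11 and 1.34 units in Control replicates 1, 2 and 3. All 3 mutant values lay above all 3 Control values, and β-cateninGOF/+ replicate 3 was the highest. In bulk RNA, more cells of a type and more RNA per cell cannot be told apart. The means were 14.6 ± 5.08 units in β-cateninGOF/+ and 1.495 ± 0.481 units in Control libraries (SD, n = 3 each), a 9.76-fold difference that ranged from 7.80-fold without β-cateninGOF/+ replicate 3 to 11.9-fold without Control replicate 1. On the log2(value + 1) scale the difference was 2.61, with 2.33 between libraries whose Xist and Ddx3y levels mark them as male (1 β-cateninGOF/+ and 2 Control) and 2.81 between female ones (2 β-cateninGOF/+ and 1 Control). If all reads came from the 1446-base transcript, these values correspond to about 215, 287 and 332 reads in β-cateninGOF/+, against 37, 21 and 35 in Control libraries. Acta1 itself did not give whole reads.

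**Figure D1:**
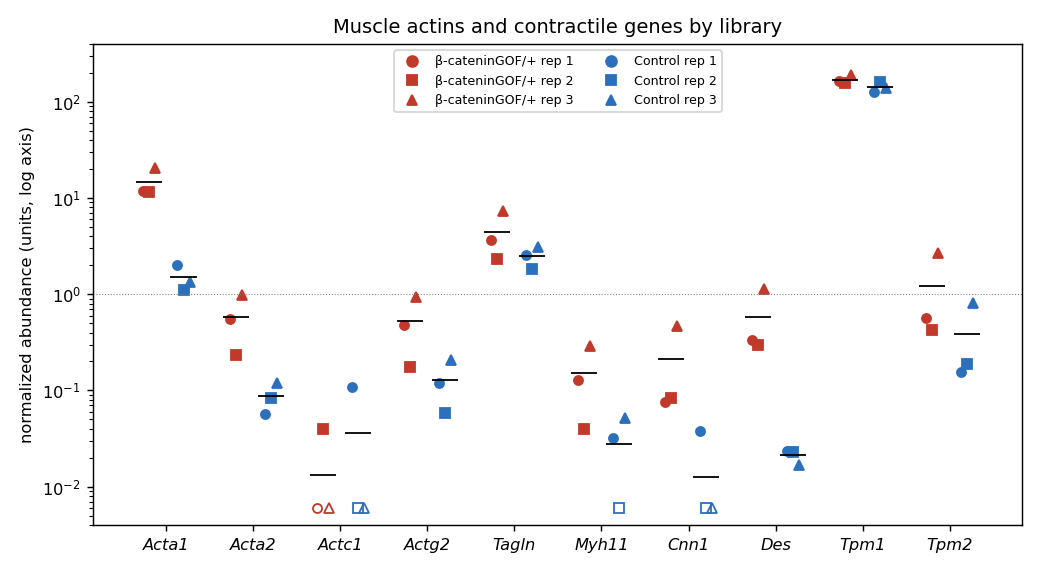
Normalized abundance of the 10 genes in each library on a log axis, with β-cateninGOF/+ libraries left of Control libraries, black lines at the group means, open symbols at the bottom for a value of 0 and a dotted line at 1 unit. Acta1 separates the groups, at 11.6 to 20.5 units in β-cateninGOF/+ and 1.11 to 2.03 units in Control libraries, Tpm1 is the only gene above 100 units, and 7 genes have a mean below 1 unit.

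The other muscle actins were close to silent. Acta2 had 0.547, 0.233 and 0.971 units in β-cateninGOF/+ replicates 1, 2 and 3, against 0.0573, 0.0836 and 0.121 units in the Control libraries, and the groups did not overlap. These values are 19, 11 and 30 reads in the mutant and 2, 3 and 6 reads in the Control libraries. The depth-corrected ratio of summed reads was 5.82, with a 95% interval of 3.03 to 12.3 (exact Clopper-Pearson). The ratio of mean units was 6.69, and 4.47 without β-cateninGOF/+ replicate 3. All such intervals in this account cover counting error only and not the spread between libraries.

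Actg2, the actin of gut smooth muscle, had 0.479, 0.176 and 0.942 units in the β-cateninGOF/+ libraries, against 0.119, 0.0579 and 0.209 units in the Control libraries. The groups overlapped, since β-cateninGOF/+ replicate 2 lay below Control replicate 3. With 8, 4 and 14 reads in mutant and 2, 1 and 5 in Control libraries the ratio was 3.47 (95% interval 1.53 to 8.87). It was 4.13 from the mean units, 2.54 without β-cateninGOF/+ replicate 3 and 6.01 without Control replicate 3.

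Actc1, the cardiac actin gene, was covered by 1 read in β-cateninGOF/+ replicate 2 and 2 reads in Control replicate 1, and by none in the other 4 libraries. No difference was detectable at this depth. Acta1 thus made up 92.0, 96.3 and 91.4% of the summed units of the 4 muscle actins in the β-cateninGOF/+ libraries and 87.7, 88.7 and 80.3% in the Control libraries. Against all 6 actins its share was 0.436, 0.622 and 0.569% in mutant and 0.128, 0.0823 and 0.0781% in Control libraries.

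The cytoplasmic actins were far more abundant. Actb had 1493, 791 and 2208 units in the β-cateninGOF/+ libraries, against 680, 493 and 902 units in the Control libraries, with overlapping groups. Actg1 had 1192, 1058 and 1365 units in mutant and 902, 854 and 814 units in Control libraries, with no overlap. Neither passed the test over all genes in limma, at log2 differences of 1.04 ± 0.42 and 0.49 ± 0.21 (SE) and an adjusted p of 0.589 for each.

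Among the actin-binding genes, Tagln encodes transgelin, an early smooth muscle protein also found in activated fibroblasts, and Cnn1 encodes calponin of mature smooth muscle. Tagln had 3.64, 2.32 and 7.26 units in β-cateninGOF/+ replicates 1, 2 and 3, against 2.55, 1.81 and 3.07 units in the Control libraries. The groups overlapped, and only β-cateninGOF/+ replicates 1 and 3 exceeded every Control library. The log2 difference of 0.55 ± 0.34 (SE) did not pass in limma (adjusted p of 0.600). Read counts were 74, 64 and 131 in β-cateninGOF/+ and 52, 38 and 89 in Control libraries, a ratio of 1.60 (95% interval 1.32 to 1.95). The ratio of mean units was 1.78, and it was 1.20 without β-cateninGOF/+ replicate 3.

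Cnn1 had 2, 3 and 11 reads in the β-cateninGOF/+ libraries, against 1, 0 and 0 in the Control libraries, which is 0.0764, 0.0844 and 0.473 units in β-cateninGOF/+, against 0.0381, 0 and 0 units in Control. Every mutant library lay above every Control library, by a single read for β-cateninGOF/+ replicate 1. The ratio of summed reads was 17.1 with a 95% interval of 2.65 to 716. The ratio of mean units was 16.6, and 6.34 without β-cateninGOF/+ replicate 3.

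Myh11, which encodes the smooth muscle myosin heavy chain, was covered by 12, 5 and 24 reads in the mutant and 3, 0 and 7 reads in the Control libraries. Its level was 0.128, 0.0393 and 0.288 units in β-cateninGOF/+, against 0.0319, 0 and 0.0523 units in Control libraries, and the groups overlapped at β-cateninGOF/+ replicate 2. The ratio of reads was 4.38 (95% interval 2.16 to 9.80). The ratio of mean units was 5.41, 2.98 without β-cateninGOF/+ replicate 3 and 9.52 without Control replicate 3.

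Des, which encodes the intermediate filament protein desmin of all muscle types, had the largest ratio of reads among the 7 genes with whole reads. It had 14, 17 and 42 reads in the β-cateninGOF/+ libraries and exactly 1 read in each Control library, or 0.334, 0.298 and 1.13 units in β-cateninGOF/+, against 0.0237, 0.0231 and 0.0167 units in Control. The groups did not overlap. The ratio of reads was 26.0 with a 95% interval of 8.55 to 129, and the ratio of mean units was 27.7, or 14.9 without β-cateninGOF/+ replicate 3.

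**Figure D2:**
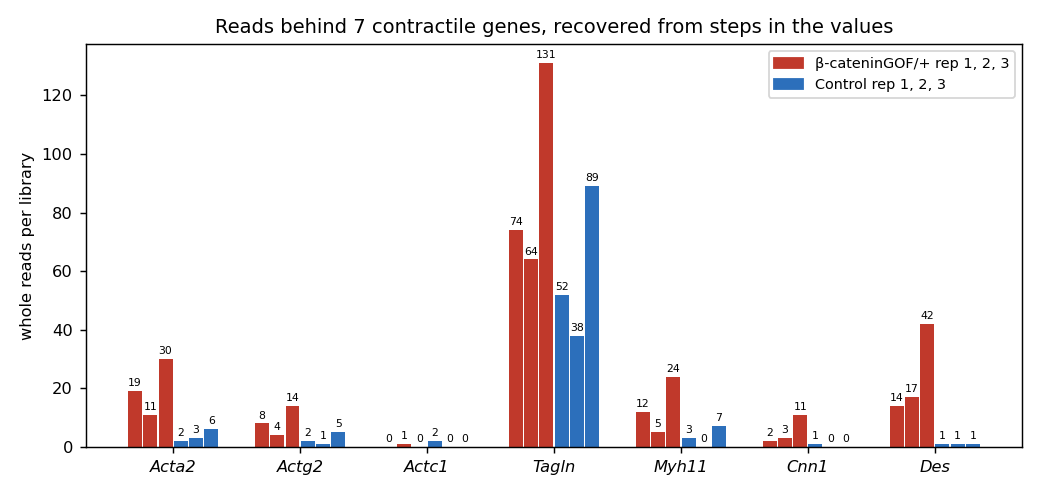
Whole reads per library for the 7 contractile genes whose values gave them, with β-cateninGOF/+ bars left of Control bars and replicates 1, 2 and 3 in order within each colour. Des has 14, 17 and 42 reads in β-cateninGOF/+, against 1, 1 and 1 in Control libraries, and Actc1 has 3 reads in all.

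Tropomyosins wind along actin filaments. Tpm1 was the most abundant gene of the set, at 165, 156 and 189 units in β-cateninGOF/+ replicates 1, 2 and 3, against 126, 162 and 140 units in the Control libraries. The groups overlapped, and the log2 difference of 0.26 ± 0.17 (SE) did not pass in limma (adjusted p of 0.605). Tpm1 supplied 36.5, 33.9 and 35.9% of the summed units of Tpm1 to Tpm4 in mutant libraries and 32.2, 38.5 and 36.2% in Control libraries; the table does not separate its muscle and non-muscle isoforms. Tpm2, mainly a muscle tropomyosin, had 0.564, 0.430 and 2.69 units in the mutant and 0.155, 0.188 and 0.816 units in the Control libraries. Its groups overlapped, and replicate 3 was the highest library of both groups. The ratio of mean units was 3.18, 1.29 without β-cateninGOF/+ replicate 3 and 7.16 without Control replicate 3.

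Set against all genes, 4 of the 10 had every β-cateninGOF/+ value above every Control value, namely Acta1, Acta2, Cnn1 and Des, and 0 had every value below. The same held for 8.29% of the 19202 genes with any value above 0, and 6.54% lay wholly below. By level, the shares wholly above were 8.34% of genes averaging 1 unit or more and 8.21% of those under it, and 8.37% of the higher group lay wholly below. Since Acta1 was the reason for the choice, nothing is read from this count. Only 3 of the 10 genes had a mean of at least 1 unit, the minimum for the test: Acta1, Tagln and Tpm1. Of the other 2, 0 passed in limma, and 0 had an unadjusted p under 0.05. In the same test 0.0169% of the 11837 genes tested passed in either direction and 0% passed as higher. The median log2 difference of the 9 genes other than Acta1 was 0.41, against -0.02 for all genes tested. For the 7365 genes below 1 unit the median was 0.02. The value of 0.41 rested in part on β-cateninGOF/+ replicate 3. Without that library each of the 9 genes lay below 0.41, from -0.02 (Actc1) to 0.37 (Des). The median of all genes tested was then -0.002.

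**Figure D3:**
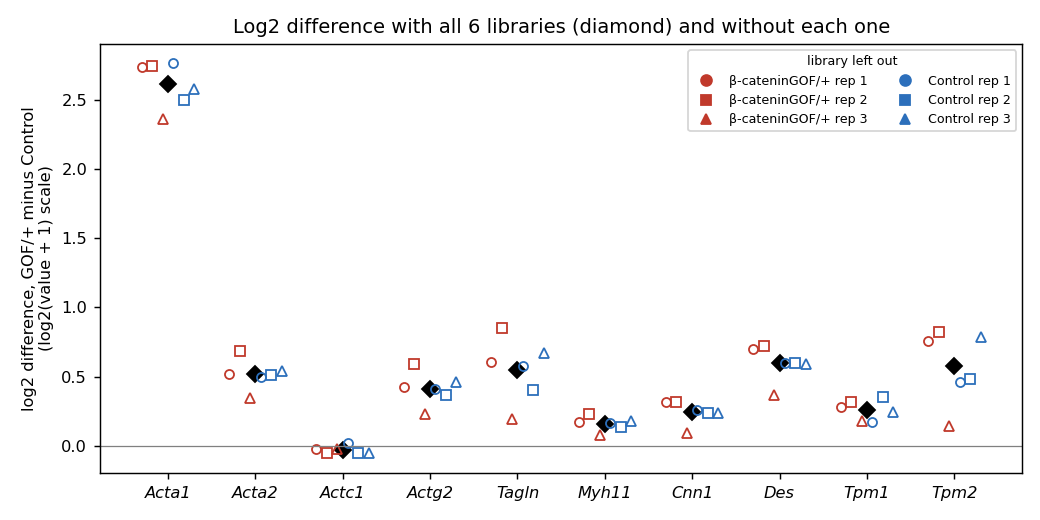
Log2 difference of each gene on the log2(value + 1) scale, β-cateninGOF/+ minus Control, with all 6 libraries (diamond) and with each library left out (coloured symbols). Acta1 stays between 2.36 and 2.76, while Tagln falls to 0.19 and Tpm2 to 0.14 without β-cateninGOF/+ replicate 3.

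Further smooth muscle genes were read from a separate list. Of its 20 contractile and regulatory genes, 8 had a mean of at least 1 unit, and 0 of them passed in limma in either direction, with 0 at an unadjusted p under 0.05 and a median log2 difference of -0.00083. Actn1 and Vcl, the actinin and vinculin genes, and Mylk, the myosin light chain kinase gene, stood at 38.5 ± 7.74, 19.9 ± 2.18 and 20.8 ± 4.71 units in β-cateninGOF/+ and 40.5 ± 9.79, 19.3 ± 2.36 and 25.1 ± 7.95 units in Control libraries. Ppp1r12b, a myosin phosphatase subunit gene, had 2.11 ± 0.581 units in β-cateninGOF/+ and 2.77 ± 0.319 units in Control libraries (SD, n = 3 each) and the smallest p of this list (adjusted p of 0.609 in limma). Of the 20 genes, 3 were higher in the mutant libraries without overlap, all below 1 unit: Myl9, Ppp1r14a and Cav1. The same held for 8.29% of all genes above 0 and for 8.21% of those under 1 unit. Myl9, the smooth muscle myosin light chain gene, had 10, 14 and 17 reads in mutant and 1, 1 and 7 in Control libraries. Myocd, the gene for the cofactor myocardin, had means of 0.00701 units in β-cateninGOF/+ and 0.0193 units in Control libraries.

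Acta1 is a skeletal muscle gene, so the rest of that programme was examined. Of 31 genes of skeletal and cardiac muscle, 4 had a mean of at least 1 unit and 7 were at 0 in every library: the myosin genes Myh1, Myh4, Myh8, Myl2 and Myl3 and the regulators Myod1 and Myog. Ckm, the muscle creatine kinase gene, had means of 0.0138 and 0.0368 units in β-cateninGOF/+ and Control libraries. The 4 above 1 unit were Mylpf, Tnnt1, Tnnt2 and Tnni2, and 0 of them passed in limma, with 0 at an unadjusted p under 0.05. Mylpf, a fast-muscle light chain gene, had 4.49 ± 0.830 units in β-cateninGOF/+ and 5.75 ± 0.784 units in Control libraries. Tnnt1, a troponin gene, had 3.17 ± 0.190 units in β-cateninGOF/+ and 2.74 ± 0.732 units in Control libraries. Tnni2 had 5.85 units in β-cateninGOF/+ replicate 3 and at most 0.259 units in any other library. Tnnt2 likewise passed 1 unit only through that library, at 3.31 units against at most 0.964 units in any other. Of the 31 genes, 1 was higher in the mutant libraries without overlap, Tnni1, with a mean below 1 unit. The same held for 8.29% of all genes above 0.

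Marker lists of cells outside the epithelium were read beside these genes. Myh11, Actg2, Cnn1 and Des, which serve as smooth muscle markers and belong to the 10 genes themselves, summed to 1.02, 0.598 and 2.83 units in the β-cateninGOF/+ libraries and 0.213, 0.0810 and 0.278 units in the Control libraries. The 13 fibroblast genes summed to 25.7 to 55.1 units in mutant and 7.18 to 11.9 units in Control libraries, and 12 of them were higher in the mutant libraries without overlap. Vim and Thy1 held most of each Control sum, with means of 9.84 and 1.88 units in mutant and 5.73 and 2.39 units in Control libraries. Mgp, a matrix protein gene, had 3.00, 3.72 and 6.39 units in β-cateninGOF/+, against 0, 0 and 0.1103 units in Control libraries. Col3a1, a fibrillar collagen gene, had 3.09, 1.77 and 4.96 units in β-cateninGOF/+, against 0.0507, 0.0493 and 0.134 units in Control libraries. Summed reads were 87 in β-cateninGOF/+ and 1 in Control libraries for Mgp, and 778 and 23 for Col3a1. Neither passed in limma (adjusted p of 0.0935 and 0.249), and 0 of the 8 fibroblast genes tested did, with 6 of them higher at p under 0.05 before adjustment. Over all genes, 559 of the 11837 tested were higher at that unadjusted level in limma. Pdgfra, a stromal receptor gene, had 0.149, 0.103 and 0.204 units in mutant libraries and was at 0 in all 3 Control libraries. The 8 pericyte genes summed to 1.63, 1.82 and 14.7 units in mutant and 0.688 to 1.54 units in Control libraries. Mcam alone had 1.04, 1.18 and 11.5 units in mutant and 0.476, 0.180 and 0.523 units in Control libraries. Pdgfrb overlapped between the groups, and the pericyte marker Higd1b was at 0 in every library but β-cateninGOF/+ replicate 3. Without overlap and higher in mutant libraries were 3 of the 8 pericyte, 2 of 10 endothelial, 2 of 12 immune and 0 of 6 glial and interstitial genes, where 8.29% of all genes above 0 were so. Endothelial genes summed to 2.38 to 4.35 units in β-cateninGOF/+ and 1.56 to 2.26 units in Control libraries. Egfl7 alone had 1.46, 2.05 and 1.61 units in mutant and 0.902, 0.944 and 1.17 units in Control libraries, while Pecam1 overlapped between the groups. Immune genes summed to 43.6 to 133 units in β-cateninGOF/+ and 34.6 to 77.6 units in Control libraries. The 6 genes of enteric glia and interstitial cells of Cajal summed to 7.91 to 11.8 units in β-cateninGOF/+ and 9.33 to 24.0 units in Control libraries. The part of these other cells in the values of Acta1 and its partners was not tested.

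**Figure D4:**
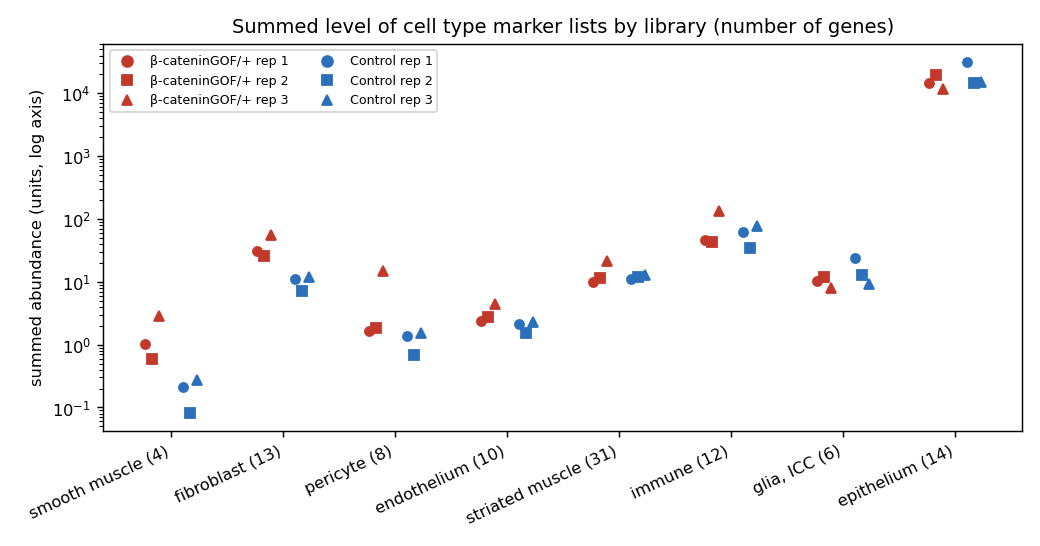
Summed abundance of each cell type's marker list by library on a log axis, β-cateninGOF/+ left of Control, with the number of genes in brackets. Smooth muscle, fibroblast, pericyte and endothelial sums do not overlap between the groups, and striated muscle, immune, glial and epithelial sums do. In the mutant libraries Mcam has the highest value of the pericyte list and Egfl7 that of the endothelial list. The Paneth cell gene Lyz1 has the highest value of the epithelial list in each library.

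Acta1's profile over the 6 libraries was nearest to those of Mgp, Gsta3, C3, Akr1b8 and Dcn, by the root mean square difference of centred log2(value + 1) values (0.24 to 0.41). Gsta3, a glutathione transferase gene, had 10.3, 8.28 and 18.6 units in β-cateninGOF/+ libraries, against 2.22, 1.18 and 2.21 units in Control libraries. C3, the complement gene, had 12.7, 15.1 and 16.3 units in β-cateninGOF/+, against 1.23, 0.281 and 1.63 units in Control libraries. Akr1b8, an aldo-keto reductase gene, had 22.9, 15.04 and 55.8 units in β-cateninGOF/+, against 4.03, 3.04 and 5.67 units in Control libraries. Dcn, the gene for the matrix proteoglycan decorin, had 4.86, 3.28 and 7.04 units in β-cateninGOF/+, against 0.820, 0.203 and 0.814 units in Control libraries. The nearest to Tagln were other genes, Slc5a9, 9530082P21Rik, Tdrd7, Wsb1 and Sema4b (0.06 to 0.08), all without separation of the groups. Likeness over 6 libraries in 2 groups is a description and carries no test.

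The gene for SRF itself was measured in every library. Srf had 11.7, 11.9 and 16.7 units in the β-cateninGOF/+ libraries, against 9.23, 9.97 and 9.23 units in the Control libraries, without overlap. These are 668, 918 and 847 reads in β-cateninGOF/+ and 528, 587 and 752 reads in Control libraries, a ratio of 1.39 (95% interval 1.31 to 1.48). The log2 difference of 0.45 did not pass in limma (adjusted p of 0.589). The MRTF genes Mrtfa and Mrtfb overlapped between the groups, at log2 differences of 0.14 and -0.30.

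Of 22 genes of the SRF list found in the table, 17 were tested, 0 passed in limma, and before adjustment 6 higher and 1 lower had p under 0.05. Of all 11837 genes tested, 559 higher and 425 lower had an unadjusted p under 0.05 in limma. The median log2 difference of the 17 was 0.45, against -0.02 for all genes tested, and 14 were higher. In 10 of the 22, every mutant value lay above every Control value, and in 1, Fhl1, below, where 8.29% and 6.54% of all genes above 0 lay so. The 3 of smallest p encode transcription factors of the immediate early response to growth signals. Egr1 had 6.25, 9.71 and 12.3 units in β-cateninGOF/+ libraries, against 1.44, 3.38 and 2.26 units in Control libraries (adjusted p of 0.396 in limma). Junb had 18.4, 14.4 and 59.8 units in β-cateninGOF/+, against 8.33, 5.76 and 7.83 units in Control libraries. Fos had 49.8, 22.0 and 99.8 units in β-cateninGOF/+, against 9.80, 11.5 and 20.9 units in Control libraries. Neither Junb nor Fos passed in limma (adjusted p of 0.589 for each). Vcl, Tpm4, Flna, Zyx, Actg1 and Actb, cytoskeletal genes of the list, had log2 differences of 0.04, 0.11, 0.27, 0.46, 0.49 and 1.04. Of 20 genes of the general actin and myosin cytoskeleton, 19 were tested, 0 passed and 1 had an unadjusted p under 0.05; Actg1, Tpm3, Cfl1, Pfn1 and Vasp were higher in the mutant libraries without overlap.

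**Figure D5:**
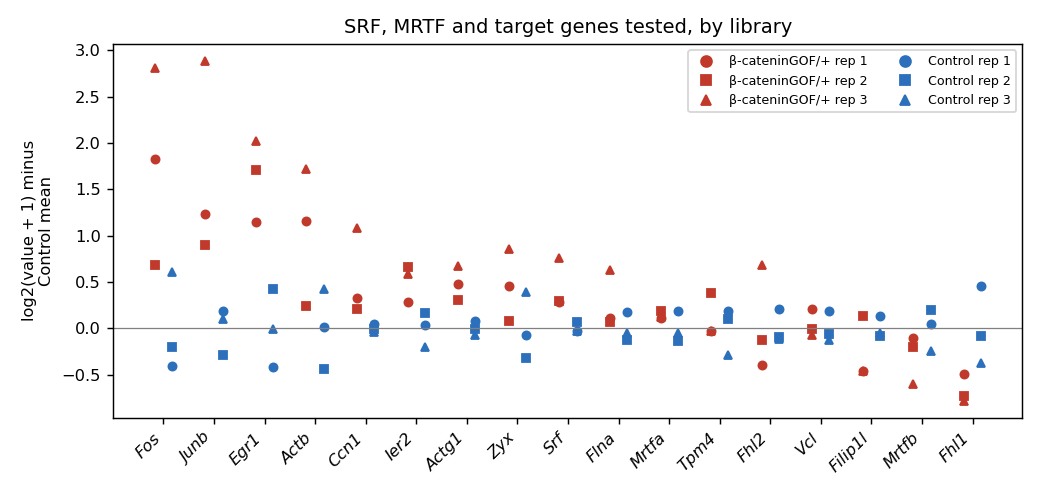
Log2(value + 1) of each tested gene of the SRF list in each library, minus its Control mean, with β-cateninGOF/+ libraries left of Control libraries and genes ordered by their difference. Fos, Junb and Egr1 stand highest, and Srf lies above the Control libraries in all 3 mutant libraries.

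The promoters were then searched for the CArG box on both strands of the window from 250 bases before to 50 after the RefSeq start (GRCm38.p6). Only exact matches to CCWWWWWWGG, where W is A or T, were counted. The motif in this form reads the same on both strands, and 1.63% of 32851 promoters held it. Of the 7 contractile genes with a promoter in the table, 2 did, Acta1 and Actc1. Their 250 bases before the start are printed with those of Acta2 and of Actg1, to show the motif (in capitals) in actin genes of very different level: the motif starts 73 bases before the start in Acta1, 47 in Actc1 and 90 in Actg1. Acta1 is at chr8:123894776-123895025, Actc1 at chr2:114052876-114053125, Acta2 at chr19:34255374-34255623 and Actg1 at chr11:120348496-120348745, all on the minus strand and written 5′ to 3′ in the direction of the gene.
Acta1: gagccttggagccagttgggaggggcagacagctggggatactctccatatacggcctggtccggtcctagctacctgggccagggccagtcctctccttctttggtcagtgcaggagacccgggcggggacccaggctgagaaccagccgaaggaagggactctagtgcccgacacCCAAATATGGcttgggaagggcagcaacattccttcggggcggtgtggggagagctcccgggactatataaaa
Actc1: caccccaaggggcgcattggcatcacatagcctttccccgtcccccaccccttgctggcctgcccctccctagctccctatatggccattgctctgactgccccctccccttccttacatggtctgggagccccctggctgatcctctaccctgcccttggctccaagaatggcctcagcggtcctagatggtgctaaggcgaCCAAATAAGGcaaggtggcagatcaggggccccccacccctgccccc
Acta2: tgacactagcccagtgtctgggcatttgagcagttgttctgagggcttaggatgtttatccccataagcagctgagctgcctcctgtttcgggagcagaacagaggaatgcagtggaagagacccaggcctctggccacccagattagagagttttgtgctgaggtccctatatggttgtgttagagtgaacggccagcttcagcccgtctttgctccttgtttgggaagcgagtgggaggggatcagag
Actg1: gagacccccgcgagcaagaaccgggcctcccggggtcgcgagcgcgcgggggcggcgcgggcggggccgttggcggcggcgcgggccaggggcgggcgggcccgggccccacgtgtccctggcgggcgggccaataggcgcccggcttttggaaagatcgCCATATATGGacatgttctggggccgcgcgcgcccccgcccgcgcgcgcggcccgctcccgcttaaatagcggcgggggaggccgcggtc
Actc1 carries the motif and had 3 reads in all, Acta1 carries it and had the values above, and Actg1 carries it at 814 to 1365 units. A match is a description of the letters and not a measured site. Its absence in Acta2, Cnn1, Des, Tpm1 and Tpm2 says only that this window lacks an exact match. The printed Acta2 stretch holds ccctatatgg and ccttgtttgg, which have another base among the W positions and were not counted. Of 17 genes of the SRF list with a promoter in the table, 8 held the motif, in a list made of known targets.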

How the data were processed

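RNA of mouse crypt epithelium was purified with poly-T beads and sequenced from randomly primed cDNA, per the labels' protocols. The deposited signal is the authors' normalized abundance of each gene; kallisto 0.46.1, DESeq2 1.40.1 and mm9 are named, with no role, per the submitters' processing notes. Groups and replicates come from the titles, and the exon columns were taken as the group that the titles do not call Control. Of all genes, 5728 were at 0 throughout and 0 value columns lacked a sample.

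Values x were taken as log2(x + 1), and genes averaging 1 unit or more were tested in limma 3.58.1 (R 4.3.3; trended prior variance; group the only term), with Benjamini-Hochberg adjustment over 11837 genes and a threshold of 0.05. Low genes' differences are understated on this scale. The test was tested on simulated data. Whole reads were sought per gene by scaling values with each library's relative depth (tolerance of 0.001 reads). They came out for 63.1% of genes, with a step that depends on gene length, so no count model was run. Reads are not independent molecules. Sequence words were counted over GENCODE vM21 transcripts; no coordinates of the authors' build are given. Other tools were pandas 2.3.3, NumPy 2.4.6, matplotlib 3.10.9 and Python 3.11.15.

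The genes and lists were chosen with earlier results of these data known. Named beside the 10 genes are the 3 tested genes of smallest p of each list, where a result turns on them, and the 5 genes nearest to Acta1 and to Tagln; others were chosen after their values were seen. Alternatives were other scalings, filters and pseudocounts, array weights, a replicate block, sex read from Xist and Ddx3y, and leaving out each library.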

Additional observations from a re-analysis of the deposited data

How the results depend on the processing

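The count of genes called over all genes, 2 in the fit as reported, became 0 without a filter, 1 with a pseudocount of 5, 27 with array weights (20 higher and 7 lower), 0 with the sex covariate and 11 with no filter and a pseudocount of 0.1, which was added after seeing the data. With the replicate block it was 0; same-numbered libraries deviated from their group means with correlations of -0.29, 0.33 and 0.32, so the numbers were not taken to pair them, and β-cateninGOF/+ replicate 1 correlated best with Control replicate 2. Leaving out 1 library gave 0 to 4. The counts for the contractile genes other than Acta1, the other smooth muscle genes and the SRF list were 0 under every alternative run. Of these contractile genes only 2 were tested in most settings, 1 at a mean of at least 5 units and 9 without a filter. With so few genes called over all genes, these counts of 0 say little. Striated muscle genes detected were 4 at a mean of 1 unit and 12 at 0.1 unit. The log2 difference of Acta1 was 3.19 with a pseudocount of 0.1 and 1.57 with 5, and lay between 2.36 and 2.76 without each library. Scaling by median of ratios or upper quartile left it at 2.61 and 2.57. For the 6 genes below 1 unit other than Actc1, the pseudocount sets the size of the log2 difference, which for Des was 0.60, 2.30 with 0.1 and 0.15 with 5. The contractile genes with whole reads and a mean below 1 unit rest on 0 to 42 reads per library, and depth limits what can be said of them.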
